A study of Mus musculus with 1248 samples.

Results

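C1q macrophages were taken from single wells of mCherry-sorted 4T1 mouse mammary carcinoma preparations as the wells with high C1q and neither a B cell nor a keratin signal. A well qualified with at least 1000 detected genes, at least 50000 gene counts, a summed C1qa, C1qb and C1qc level of at least 600 CPM (reads of a gene per 1000000 gene reads of the well), less than 100 CPM of the B cell receptor gene Cd79a, and less than 500 CPM of the keratins Krt8 and Krt18 together. Of 1248 wells, 84 qualified. The wells were chosen by these measured values, so the levels of these genes below are a description.

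The study measured single cells of the BALB/c-derived line 4T1 and its derivative 4T1.2, both carrying firefly luciferase and mCherry, by full-length RNA sequencing. The qualifying wells came from 5 groups of female BALB/c mice: 5 wells of the 4T1 tumour of the mammary fat pad at day 22, then, from hindlimbs after intracardiac injection, 7 wells of 4T1 at day 4, 15 at day 10 and 56 at day 16, and 1 well of 4T1.2 at day 4. None came from the 107 wells of cultured cells that passed depth, where the highest C1q sum was 0.455 CPM. The labels present every well as a tumour cell, and wells with an mCherry qPCR threshold cycle above 30 had been discarded. No tumour-free marrow was among the groups. The position of a cell relative to tumour cells was not recorded, so the nearness to tumour in the working name of these cells cannot be checked. No animal or plate was named for any well, so each group counts as 1 sample, no difference was tested, and a ratio between groups describes these wells only. The spread over wells is given in place of an error across animals.

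C1q is the recognition protein of the classical complement pathway. It binds antibody on surfaces and also dying cells, and resident and tumour-associated macrophages make much of it locally. The same macrophages commonly carry apolipoprotein E (Apoe) for lipid efflux, the receptor for the growth factor CSF1 (Csf1r), which keeps macrophages alive, and Trem2, a receptor for lipids and debris that signals through Tyrobp. In marrow, macrophages that carry Vcam1 clear worn red cells and nuclei and hold blood precursors in place.

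The C1q genes lie side by side on the minus strand of chromosome 4 of GRCm38, with C1qb at 136880129 to 136886187, C1qc at 136889804 to 136893065 and C1qa at 136895917 to 136898803. The 250 bases before the RefSeq starts of C1qb, C1qc and Trem2 are shown because these genes define the wells or vary most among the defining markers between day 4 and day 16. Capitals mark GAGGAA or its reverse complement TTCCTC, a core of the kind bound by the myeloid factor PU.1, and TGCTGA, a MAF half-site, and both were searched on both strands. The windows, from RefSeq on GRCm38.p6, are chr4:136886201-136886450 on the minus strand for C1qb, chr4:136892915-136893164 on the minus strand for C1qc and chr17:48346151-48346400 on the plus strand for Trem2.
C1qb: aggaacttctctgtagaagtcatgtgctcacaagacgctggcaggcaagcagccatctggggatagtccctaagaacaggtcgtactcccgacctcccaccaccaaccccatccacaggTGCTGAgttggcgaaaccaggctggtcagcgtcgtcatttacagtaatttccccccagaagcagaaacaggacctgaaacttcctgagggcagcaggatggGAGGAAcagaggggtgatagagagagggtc
C1qc: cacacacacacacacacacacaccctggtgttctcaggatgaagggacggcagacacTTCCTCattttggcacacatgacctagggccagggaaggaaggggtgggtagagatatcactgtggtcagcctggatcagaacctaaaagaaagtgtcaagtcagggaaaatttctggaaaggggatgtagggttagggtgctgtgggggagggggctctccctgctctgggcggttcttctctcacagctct
Trem2: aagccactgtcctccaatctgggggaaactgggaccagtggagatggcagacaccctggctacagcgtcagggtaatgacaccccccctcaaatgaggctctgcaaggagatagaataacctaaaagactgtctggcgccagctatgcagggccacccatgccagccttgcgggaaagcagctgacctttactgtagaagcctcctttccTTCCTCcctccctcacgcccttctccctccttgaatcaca
In C1qb the core begins 30 bases and the half-site 131 bases before the start. In C1qc the core begins 193 bases and in Trem2 40 bases before the RefSeq start. The C1qc window lies partly inside the gene span given above, which is from GENCODE and starts at 136893065 on the minus strand. The C1qc distance therefore holds for the RefSeq start only. Of 32851 mouse promoter windows of the same 250 bases, 23.3% held GAGGAA on either strand and 16.1% held TGCTGA, so a match alone describes many genes.

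C1q levels fell into separate ranges. Among wells that met every other criterion, 246 had 0 to 10 CPM of C1q, 89 had 10 to 100, 4 had 100 to 300 and 3 had 300 to 600. None lay from 600 to 1200, and all 84 macrophage wells had 1200 CPM or more. The lowest well inside the rule, day 16 cell 139, had a C1q sum of 1496 CPM with 49082 CPM of Apoe and 568 CPM of Trem2. The highest well outside, fat pad cell 25, had 411 CPM with 11340 CPM of Apoe, 434 CPM of Csf1r and 109 CPM of Trem2.

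**Figure D1:**
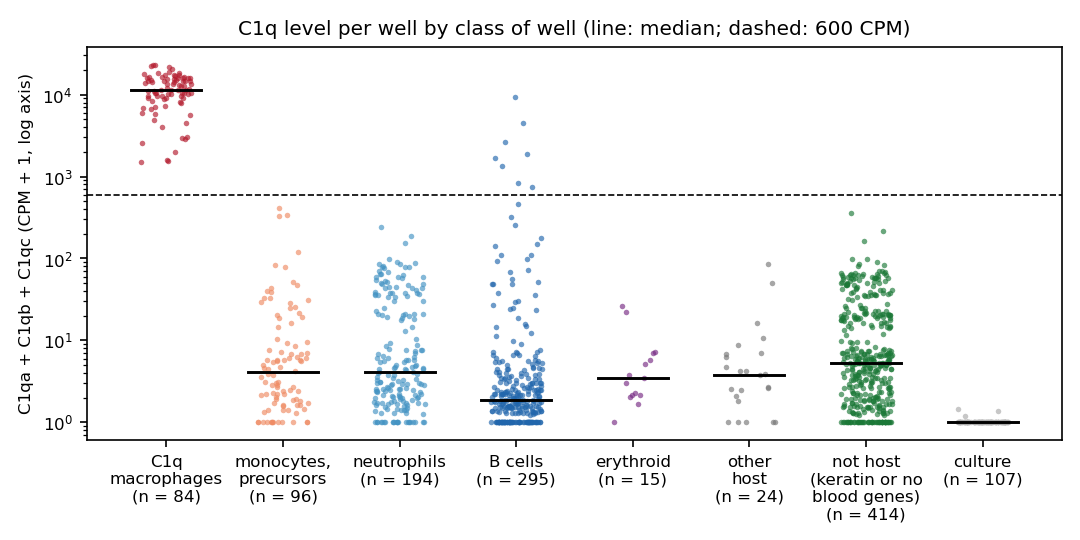
Each point is a well, the vertical axis is the C1q sum as CPM plus 1 on a log axis, and the columns are the 84 macrophage wells, the other host classes, wells not called host and cultured cells. The macrophage wells start at 1496 CPM, the dashed line marks 600 CPM, and the 8 wells above it among B cells were left out by Cd79a.

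The labelled cell type was checked against its markers, of which the C1q genes had chosen the wells. C1qa ran from 162 to 11123 CPM with a median of 4480 CPM, C1qb from 483 to 8431 CPM with a median of 4381 CPM, and C1qc from 88.6 to 6123 CPM with a median of 3212 CPM. Apoe ran from 1313 to 71070 CPM with a median of 20836 CPM. Csf1r reached 20 CPM in 81 of 84 wells, with a median of 939 CPM, and Trem2 in 74 of 84, with a median of 380 CPM. The lysosomal protease gene Lgmn and the scavenger and chemokine gene Cxcl16 reached 20 CPM in all 84 wells, at medians of 2864 and 779 CPM. Trem2 was at or below 5 CPM in 8 wells, of which 4 were among the 7 of day 4, 1 was of day 10, 2 were of day 16 and 1, cell 7, was of the fat pad. Csf1r was below 20 CPM in 3 wells, fat pad cell 7, day 10 cell 96 and day 16 cell 97.

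Low C1q reads were found in wells of every host class, which sets a background. At day 16, C1qa had a median of 4582 CPM in the macrophages, against 15.9 CPM in the other host wells and 19.4 CPM in the wells not called host. The lowest value in those wells was 8.48 CPM in other host wells and 8.36 CPM in wells not called host, so none was at 0. Such reads were near 0 in culture, and levels near them are treated below as background.

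Macrophages made up a larger part of the host wells at later days. They were 5 of 10 host wells of the fat pad (50%, exact binomial interval at 95% 18.7 to 81.3%). In bone they were 7 of 352 at day 4 (1.99%, 0.803 to 4.05%), 15 of 42 at day 10 (35.7%, 21.6 to 52.0%) and 56 of 120 at day 16 (46.7%, 37.5 to 56.0%). The 4T1.2 day 4 group had 1 of 184 (0.543%, 0.0138 to 2.99%). The intervals cover counting error over wells only. No animal or plate is named for the wells, so these intervals cannot compare days. Inside day 16 the share was 67.3% (52.9 to 79.7%) in cells numbered 1 to 96. It was 30.9% (20.2 to 43.3%) in cells 97 to 192. Wells had passed a sort and a qPCR selection for mCherry, which can set these shares, and this was not tested.

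Depth was alike between groups, with median gene counts of 2794465 in the fat pad, 2742413 at day 4, 2689522 at day 10 and 2590320 at day 16. Single wells ranged from 190236 to 5118161 counts and from 4683 to 11299 detected genes. A summed level of 20 CPM carries an exact Poisson interval that reaches at most 13.1% above it in the fat pad, the smallest group compared. That interval covers counting error of reads, which carried no molecular barcodes. One macrophage well held 37.9% mitochondrial reads, against a median of 3.45%. No pair of wells held identical values.

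Other cells' RNA in the macrophage wells was small for most classes. Summed B cell, erythroid, T and NK, dendritic, basophil and mast, and megakaryocyte markers had medians of 10.6, 0, 1.95, 0.377, 0 and 0 CPM over the 84 wells. The 10 neutrophil markers summed to 40.2 to 740 CPM in the fat pad (median 242), and in bone to 780 to 1509 CPM at day 4 (median 902), 336 to 1726 CPM at day 10 (median 495) and 260 to 97080 CPM at day 16 (median 581). All 8 tumour epithelium markers together gave medians of 149 CPM in the fat pad and 22.0, 55.9 and 103 CPM at days 4, 10 and 16. Cultured cells had a median of 3733 CPM. The rule had capped Krt8 and Krt18 of this list and Cd79a of the B cell list. The low epithelium and B cell sums, and the gap to culture, therefore follow in part from the rule and are a description. Sums without these genes are not given. Summed markers of myeloid precursors, and of stroma and endothelium, had medians of 8.30 and 10.1 CPM. Dendritic markers passed 500 CPM in 2 wells, both of day 4.

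Against the 624 other host wells, the macrophages carried higher levels of uptake receptors, lysosomal and lipid genes, antigen presentation genes and chemokines, and lower levels of cell division genes. The other wells were 295 B, 194 neutrophil, 96 monocyte and precursor, 15 erythroid and 24 other wells. Ratios are log2 of summed CPM plus 5, a gene was measured with at least 20 CPM in the higher group, and called higher or lower past 2-fold. Of 7638 measured genes, 12.6% were called higher and 20.7% lower in the macrophages, and the median ratio over all of them was −0.22. With TMM scaling the counts were 1240 higher and 1231 lower, with DESeq2 size factors 1284 and 1176, against 966 and 1580 in CPM, and the median moved to 0.01 and 0.05. Within day 16 alone 1392 were higher and 1150 lower. The wells differ in day as well as class, since most macrophages came from day 16 and most other host wells from day 4.

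Among genes for taking up cells and debris, 10 of 12 measured were higher and none lower (median log2 ratio 3.63). They include the apoptotic cell receptors Mertk and Axl, the scavenger receptors Stab1 and Cd36, and the mannose receptor Mrc1. Mertk had a median of 113 CPM in the macrophages and 0 in the other host wells (log2 ratio 4.33). Mrc1 had a median of 250 CPM in the macrophages and 0 in the other host wells (4.64). Gas6, the protein that bridges dying cells to these receptors, was high in fewer wells: 26 of 84 macrophages and 9 of 624 other host wells reached 20 CPM.

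Of 18 lipid and lysosome genes of TREM2-type macrophages, 17 were higher and none lower (median 2.49). Summed Apoe was 25562 CPM in the macrophages and 550 CPM in other host wells (log2 ratio 5.52). Abca1, which exports cholesterol to apolipoproteins, had medians of 276 CPM in macrophages and 0.329 CPM in other host wells (3.75). Plin2, a lipid droplet coat protein, had medians of 865 CPM in macrophages and 93.1 CPM in other host wells (2.24). Cd9, a tetraspanin of the same list, stayed within 2-fold at −0.56.

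Of 12 measured complement genes, 9 were higher and 1, the complement decay gene Cd55, was lower (median 2.73). The 3 C1q genes chose the wells and are among the 9, and without them 6 of 9 were higher and 1 lower (2.15). C3ar1, the receptor for the complement fragment C3a, had a median of 479 CPM in macrophages and 0 in other host wells, with 76 of 84 against 26 of 624 wells at 20 CPM or more (log2 ratio 5.12). C3 itself, the central complement component, had medians of 108 CPM in macrophages and 53.2 CPM in other host wells (0.58).

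MHC class II and costimulation genes were higher for 9 of 10, with none lower (median 3.35). The class II chain gene H2-Ab1 had a median of 4729 CPM in macrophages, with a range from 3.27 to 20947, against 12.7 CPM in other host wells (log2 ratio 4.11). Its invariant chain Cd74 had medians of 10493 CPM in macrophages and 11.1 CPM in other host wells (4.42). BALB/c mice carry other class II alleles than the reference strain of mm10, and the effect on these counts was not tested.

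Of 18 measured cytokine and chemokine genes, 17 were higher and none lower (median 2.48). Ccl8, a chemokine for monocytes and lymphocytes, summed to 1083 CPM in macrophages and 1.18 CPM in other host wells (log2 ratio 7.46). It reached 20 CPM in 49 of 84 macrophages and in 4 of 624 other host wells. Cxcl9, an interferon-gamma target that draws T cells, summed to 751 CPM in macrophages and 11.3 CPM in other host wells (5.54). Ccl7, which draws monocytes through Ccr2, summed to 268 CPM in macrophages and 3.20 CPM in other host wells (5.06). Cxcl16, a membrane-held chemokine, had medians of 779 CPM in macrophages and 0.454 CPM in other host wells (4.99). The other named higher genes were Ms4a7, a membrane protein of macrophages (5.31), the adhesion gene Vcam1 (5.21), Dab2, an endocytic adaptor (5.07), and Lgmn (4.75).

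Immediate early genes were higher for 6 and lower for 1 of 12 (median 0.99), growth factor and cytokine receptors higher for 3 and lower for 2 of 11 (0.82), and interferon response genes higher for 5 of 15 (0.77).

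Lower genes marked other blood lineages. The rule had limited Cd79a in the macrophages, and Cd79a, globins, and S100a8 with S100a9 had defined the B, erythroid and neutrophil wells. Lower values of genes of those lineages therefore follow in part from the rules and are a description. Hbb-bs and Hba-a1, the globins of red cells, were at −7.50 and −6.92, and Hba-a1 shares reads with its near-identical copy Hba-a2. The B lineage genes Igkc, Vpreb3, Igll1 and Vpreb1 were at −6.75, −6.09, −6.08 and −5.68. Camp, a granule peptide of neutrophils, was at −5.96, Car2, a carbonic anhydrase of red cell precursors, at −5.70 and G0s2, a lipolysis inhibitor, at −5.66. All 12 cell division genes were lower (median −2.16). Mki67, which marks cycling cells, had medians of 3.6 CPM in macrophages and 244 CPM in other host wells, and 26 of 84 macrophages reached 20 CPM. Within day 16 alone the median of the division list was −1.0.

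Against the 96 monocyte and precursor wells, macrophages had more transcripts of lipid, uptake and antigen presentation genes and fewer of monocyte and cell division genes. Csf1r, Ccr2 and the granule genes Mpo, Elane, Prtn3 and Ctsg had defined the monocyte and precursor class, so their values here are a description. Of 7482 measured genes, 8.31% were called higher and 18.1% lower, with a median over all of −0.31. With TMM factors 895 were higher and 902 lower, with DESeq2 size factors 873 and 920, against 622 and 1355 in CPM, and the median moved to −0.03 and −0.05. Within day 16 alone 1047 were higher and 1719 lower. Macrophage identity genes were higher for 13 of 18 with none lower (median 1.26), and 9 of 12 monocyte genes were lower (median −3.10). Ly6c2, the marker of classical monocytes, whose reads cannot be told apart fully from the near-identical Ly6c1, had medians of 3.63 CPM in macrophages and 772 CPM in monocyte and precursor wells (−3.61). Plac8 had medians of 3.41 CPM in macrophages and 1191 CPM in monocyte and precursor wells (−3.75). Ccr2, the chemokine receptor of blood monocytes, had medians of 0.992 CPM in macrophages and 547 CPM in monocyte and precursor wells (−2.97). Csf1r, which both classes carry, had medians of 939 CPM in macrophages and 281 CPM in monocyte and precursor wells (1.07).

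The 10 genes furthest higher against monocytes and precursors were Ccl8 (7.48), the secreted DNase gene Dnase1l3 (5.86), Vcam1 (5.46), Ccl7 (5.02), the growth factor gene Pdgfb (4.32), Ms4a7 (4.19), Cxcl9 (4.14), the scaffold gene Sash1 (4.06), Gas6 (3.84) and Nr1h3 (3.73). Nr1h3 encodes the sterol-sensing factor LXR alpha. Among the furthest lower were the granule enzymes Mpo (−7.77), Ctsg (−6.37), Elane (−6.29) and Prtn3 (−6.20), the serine synthesis gene Phgdh (−4.51), haptoglobin Hp (−4.25), Ms4a4b (−4.18), Ramp1 (−4.11) and Ptprcap (−4.00). The T and NK markers Cd3e, Cd3d, Cd3g, Nkg7, Gzma and Ncr1 were lower as well, 6 of 6 measured (median −3.41), and their part in the values of Ms4a4b and Ptprcap was not tested. Complement genes were higher for 9 of 11 (median 2.28), and without the 3 C1q genes that chose the wells for 6 of 8 (1.59). Also higher were TREM2-type genes for 15 of 18 (1.90), uptake genes for 10 of 12 (2.22), MHC class II genes for 9 of 10 (2.08) and cytokines for 12 of 18 (1.53). Regulatory and tissue-remodelling genes were higher for 11 and lower for 1 of 15 against monocytes and precursors (1.63), and all 12 division genes were lower (−1.89).

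The marrow resident and iron recycling list was higher for 11 of 14 genes against other host wells (median 2.41) and for 13 of 14 against monocytes and precursors (2.14). Tfrc, which takes up transferrin iron, was the gene called lower in both. Hmox1, which opens the haem ring, had medians of 300 CPM in macrophages and 1.58 CPM in other host wells (log2 ratio 4.26). Vcam1 varied widely among the macrophages: 49 of 84 reached 20 CPM, with a range from 0.716 to 8261 CPM. Spic, the factor of red pulp type macrophages, reached 20 CPM in 15 of 84 and Siglec1 in 34 of 84. Timd4, Cd163 and Folr2, often high in long-lived tissue macrophages, had medians of 0 CPM and reached 20 CPM in 6, 1 and 12 of 84. Of the osteoclast genes, the acid phosphatase Acp5 had a median of 135 CPM and the proton pump subunit Tcirg1 553 CPM in macrophages. The osteoclast protease Ctsk reached 20 CPM in 3 of 84 macrophages, and Calcr and Oscar in none. Against other host wells 4 of 7 measured osteoclast genes were called higher, among them Acp5 and Tcirg1, and 2 lower. Against monocyte and precursor wells 1 of 8, Tnfrsf11a, was higher and 4, Ctsk, Ocstamp, Atp6v0d2 and Car2, were lower (median −0.95).

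**Figure D2:**
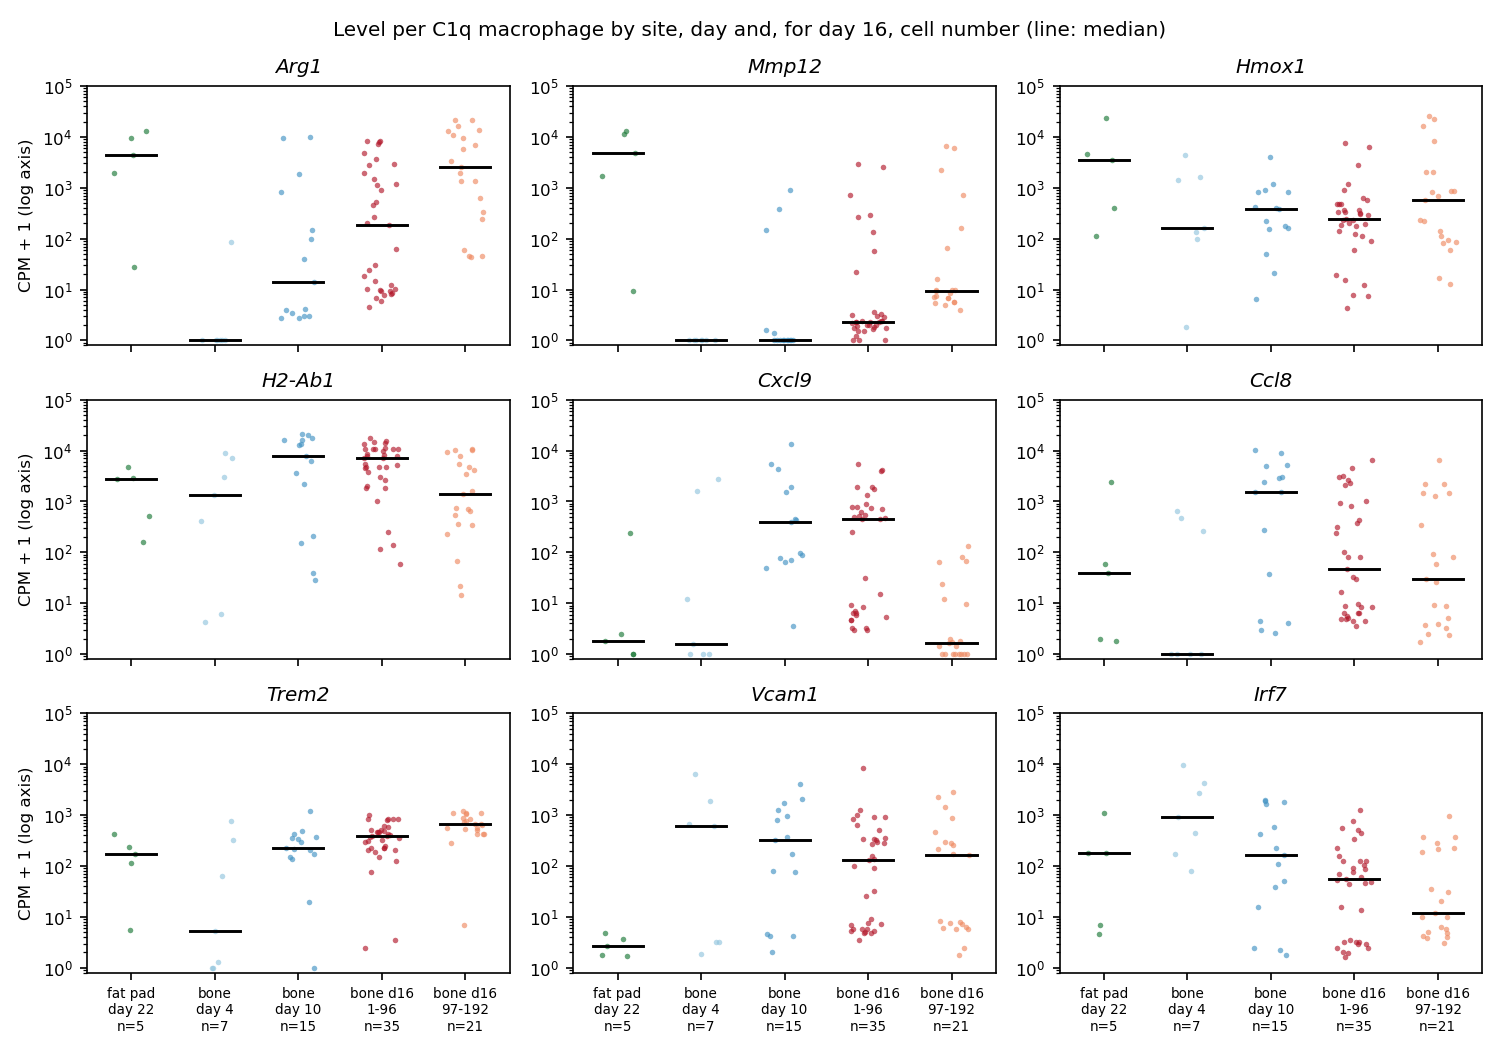
Each point is a macrophage well, the vertical axis is CPM plus 1 on a log axis, the line is the median, and the columns are the fat pad (n = 5), bone at day 4 (n = 7) and day 10 (n = 15), and day 16 cells numbered 1 to 96 (n = 35) and 97 to 192 (n = 21). Arg1 and Mmp12 have their highest medians in the fat pad, Cxcl9 is high in day 10 and in day 16 cells 1 to 96, and Vcam1 is under 4 CPM in all 5 fat pad wells.

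Day 16 macrophages fell into separate sets by cell number, which was seen only after the values were examined. The labels mention 96-well plates but tie no number to a plate. Cells numbered 1 to 96 gave 35 macrophages among 52 host wells (67.3%, 52.9 to 79.7%), and cells 97 to 192 gave 21 among 68 (30.9%, 20.2 to 43.3%). Median depth was 3065400 counts in cells 1 to 96 and 2238220 in cells 97 to 192. Mpo was 0 to 1.51 CPM in every macrophage of cells 1 to 96 and 16.0 to 39.4 CPM in every one of cells 97 to 192, without overlap. It was picked after the values were examined, and the share of all measured genes without overlap was not counted. The 5 myeloid precursor markers, Mpo among them, summed to 12.2 to 43.0 CPM in day 10 macrophages. How far such low Mpo levels are background reads was not tested. Whether the sets differ by plate, animal or leg cannot be told apart.

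Of 6880 genes measured between these sets, 9.2% were called higher and 8.49% lower in cells 1 to 96, with a median over all of 0.03. Cxcl9 had a median of 450 CPM in cells 1 to 96, where its lowest value was 1.95, and 0.674 CPM in cells 97 to 192, where its highest was 132 (log2 ratio 5.12). The next named higher genes were the metalloprotease gene Adamdec1 (3.97), Scimp (3.68), the chemokine gene Cxcl10 (3.34), the cytokine gene Il1a (3.26), Adgrg5 (3.17), Fam49a (3.05), 5330406M23Rik (2.92), the cytokine gene Tnf (2.87) and Dnase1l3 (2.84). Lower were F13a1, a clotting factor subunit of macrophages (−3.46), Ccl6 (−2.81), the nuclear receptors Rora (−2.65) and Nr4a3 (−2.59), Spp1 (−2.61), Mpo (−2.50, at the low levels given above), Ccl9 (−2.42), Hmox1 (−2.38), Pmp22 (−2.33) and Rassf8 (−2.29). Among the lists, MHC class II genes were higher for 5 of 10 (median 0.96), interferon response genes for 6 of 15 (0.98), regulatory and tissue-remodelling genes were lower for 7 of 15 (−0.76) and TREM2-type genes for 4 of 18 (−0.58).

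The 7 day 4 wells of 4T1 that met the rule were unlike each other, and in some the markers went against the name macrophage. The name is kept for them as the wells of the rule. Contrasts with day 4 can therefore hold differences of cell type as well as of day, and this was not tested. Cell 261 had 1313 CPM of Apoe, 208 CPM of Csf1r and 0 CPM of Trem2. Cell 133 had 9105 CPM of Ccr7, the homing receptor of migrating dendritic cells, with 9862 CPM of Irf7 and 0.323 CPM of Trem2. Cell 199 had 1640 CPM of Siglech, a marker of plasmacytoid dendritic cells, and 220 CPM of Cd209a. Ccr7 was at most 4.74 CPM in the 6 day 4 wells of 4T1 other than cell 133, and Siglech at most 1.61 CPM in the 6 other than cell 199. Cell 384, with the fewest counts, had 6576 CPM of Vcam1, and cell 130 had 1720 CPM of Cd24a. Trem2 across the 7 wells was 0, 0, 0.323, 4.38, 63.6, 319 and 773 CPM. The single 4T1.2 day 4 macrophage had 1606 CPM of C1q, 19964 CPM of Apoe, 263 CPM of Trem2, 28212 CPM of Cd74 and 0 CPM of Arg1.

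Arg1, the arginine-degrading enzyme of wound-type and tumour macrophages, was the gene furthest higher at day 16 than at day 4. It was 0 CPM in 6 of 7 day 4 wells and 83.6 CPM in the other. At day 10 it ran from 1.80 to 9791 CPM with a median of 13.2, and at day 16 from 3.59 to 21099 CPM with a median of 575. Day 16 and day 4 overlapped in the low wells. The log2 ratio of day 16 over day 4 was 6.99, and leaving out each day 4 well in turn gave 6.74 to 9.23. By set, the median was 187 CPM in cells 1 to 96 and 2522 CPM in cells 97 to 192. The gene had a median of 32.7 CPM in other host wells of day 16 and 8.74 CPM in wells not called host, so its lowest macrophage values lay at the level of other wells.

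Between day 16 and day 4, 27.3% of 7063 genes were called higher and 19.8% lower, with a median over all of 0.14. TMM factors gave 1447 higher and 1951 lower, and DESeq2 size factors 1243 and 2289, against 1930 and 1398 in CPM, and the median moved to −0.26 and −0.46. Beside Arg1, the furthest higher were the hypoxia-responsive genes Ndrg1 (5.23) and Bnip3 (5.02), Ifitm1 (5.11, or 4.12 without day 16 cell 87), the chemokine gene Cxcl14 (4.72), Tex264, a receptor for turnover of the endoplasmic reticulum (4.31), the ubiquitin ligase gene Fbxo32 (4.30, or 3.68 without day 16 cell 72), Zmynd15 (4.30), Gpx3 (4.07) and the respiratory chain gene Uqcrc2 (4.05). Bnip3 had 1 read, and Zmynd15 and Gpx3 had 3 reads each, over all day 4 wells, so their ratios rest on the added 5 CPM. Bnip3 had medians of 70.6 CPM at day 16 and 0 CPM at day 4, and its highest day 4 value was 0.365 CPM. Ndrg1 had medians of 95.1 CPM at day 16 and 1.71 CPM at day 4, with a highest day 4 value of 3.87 CPM and a lowest day 16 value of 2.52 CPM.

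Markers of other cells moved with this contrast. Neutrophil markers were higher at day 16 for 7 of 9 and lower for 1, Csf3r (median 1.78, or −0.19 without day 16 cell 9). The tumour epithelium markers Krt8 and Krt18 were higher and Krt7 lower (1.4), and the dendritic markers Cd209a, Siglech and Ccr7 were lower (−5.81). The rule had capped Krt8 and Krt18. Without them Krt7 was the only epithelium marker measured, at −2.69, or 0.74 without day 4 cell 347. At day 10 against day 4, neutrophil markers were lower for 3 of 8 (−0.63), and the epithelium and dendritic markers were called as at day 16 (1.19 and −5.81). Krt7 was then at −2.94, or 0.49 without day 4 cell 347. The part of all these markers in the results was not tested.

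Lower at day 16 than at day 4 were Ly6c2 (−5.87), Gm15056 (−5.77), Ly6c1 (−5.54), Plac8 (−5.00), the adhesion receptor gene Adgre4 (−4.86), the interferon regulator Irf7 (−4.50), Usp18, which limits interferon signalling (−4.48), the antiviral gene Oas3 (−4.36), Slamf7 (−3.97) and Cd24a (−3.92). Several rest on 1 day 4 well. Without cell 130, Adgre4 was at −1.92 and Cd24a at 0.58, and without cell 133 Slamf7 was at −1.56 and Usp18 at −2.58. Without cell 261, Ly6c2 was at −5.08, Gm15056 at −4.95 and Ly6c1 at −4.76. Leaving out each day 4 well in turn brought Irf7 no nearer to 0 than −3.56, Oas3 than −3.84 and Plac8 than −4.24. Irf7 was 78.8, 168, 454, 902, 2731, 4239 and 9862 CPM in the 7 day 4 wells. At day 10 it ran from 0.747 to 2021 CPM with a median of 162, and at day 16 from 0.660 to 1255 CPM with a median of 43.6. The lowest day 4 value exceeded the day 16 median, and the ranges overlapped.

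Interferon response genes were lower for 13 of 15 at day 16 against day 4 (median −2.29) and for 11 of 15 at day 10 against day 4 (−2.13), with none higher in either. Both contrasts share the day 4 wells. Without the 2 day 4 wells with over 500 CPM of dendritic markers, the medians were −1.13 at day 16 and −0.88 at day 10, and without cell 133 alone −0.96 and −0.69. Without cell 133, Ifit1 changed to 4.11, Rsad2 to 1.91, Ifit3 to 1.10 and Ifit2 to 0.69 at day 16 against day 4. Zbp1 was at −0.42, while Isg15, Irf7, Bst2, Oasl2 and Usp18 stayed at −1.32 or lower. At day 10, Ifit1 changed to 0.26 and Rsad2 to 0.25, while Isg15, Ifit2, Ifit3, Irf7, Bst2, Oasl2 and Usp18 stayed negative. Over cells 1 to 96 the median at day 16 was −1.98, and over cells 97 to 192 −3.38. Isg15, a ubiquitin-like protein induced by interferon, reached 20 CPM in 4 of 7 wells at day 4, 6 of 15 at day 10 and 8 of 56 at day 16. Usp18 reached it in 5 of 7, 3 of 15 and 4 of 56.

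MHC class II genes were higher for 5 of 9 and lower for 1, the costimulatory receptor Cd40, at day 16 against day 4 (median 1.09). The median was 0.73 with TMM factors, 0.56 with DESeq2 size factors, 0.52 over cells 97 to 192 and 2.37 without the dendritic-marker wells. At day 10 against day 4 they were higher for 6 of 10 and lower for 1 (1.48). H2-Ab1 ran from 3.27 to 8844 CPM at day 4 with a median of 1340, from 27.9 to 20947 CPM at day 10 with a median of 7811, and from 13.3 to 17486 CPM at day 16 with a median of 4779. The ranges overlapped over most of their length. The day 16 median was 7106 CPM in cells 1 to 96 and 1370 CPM in cells 97 to 192.

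At day 10 against day 4, 26% of 6894 genes were called higher and 23.8% lower, with a median over all of 0.03. TMM factors gave 1447 higher and 2007 lower, and DESeq2 size factors 1320 and 2165, against 1790 and 1638 in CPM, and the median moved to −0.25 and −0.36. Beside Arg1 (6.31, or 5.59 without day 10 cell 3) the furthest higher were Pdpn (5.80), the matrix protease gene Mmp19 (5.13, or 4.40 without day 10 cell 3), Zmynd15 (4.52), Upp1 (4.44), Socs1, a brake on cytokine signalling (4.28, or 3.34 without day 10 cell 30), the cystine transporter gene Slc7a11 (4.27, or 3.68 without the same well), the cell death kinase gene Ripk3 (4.22), Edem2 (4.15) and Smpdl3b (4.15). Pdpn had 1 read and Smpdl3b 2 reads over all day 4 wells. Socs1 had medians of 93.0 CPM at day 10 and 1.14 CPM at day 4. Lower were Cd24a (−5.54, or −1.05 without cell 130), the lectin gene Fcna (−5.33, or −2.93 without cell 199), Usp18 (−5.13, or −3.24 without cell 133), Sh3bp5 (−4.65), Ing2 (−4.61), Fbrsl1 (−4.46, or −1.33 without cell 130), Adgre4 (−4.38, or −1.43 without cell 130), Adam19 (−4.28, or −3.36 without cell 371), Lsp1 (−4.23) and Ankrd46 (−4.18). Without cell 130, Sh3bp5 was at −2.94, Ing2 at −3.31, Lsp1 at −3.45 and Ankrd46 at −2.15. TREM2-type genes were higher for 9 and lower for 1 of 18 at day 10 (median 1.08, or 0.84 with TMM factors) and for 6 of 18 at day 16 (0.57, or 0.05 with DESeq2 size factors). Trem2 itself had medians of 4.38, 227 and 465 CPM at days 4, 10 and 16.

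Monocyte genes were lower for 7 and higher for 1 of 8 at day 10 against day 4 (median −2.56) and lower for 5 and higher for 3 of 10 at day 16 against day 4 (−1.20, or 0.36 without day 4 cell 130). Cytokine genes were lower for 10 and higher for 4 of 18 at day 10 (−1.06, or −0.37 with wells weighted equally and −0.16 without day 4 cell 347), and lower for 6 and higher for 3 of 18 at day 16 (−0.44, or 0.25 without cell 347). Macrophage identity genes were higher for 3 and lower for 1 of 18 at day 16 (median 0.20), and higher for 1 and lower for 2 of 17 at day 10 (0.03). Regulatory and tissue-remodelling genes were higher for 7 and lower for 2 of 14 at day 16 (0.77), and higher for 6 and lower for 3 of 14 at day 10 (0.33, or 1.19 without day 4 cell 130). Cell division genes were higher for 5 and lower for 2 of 12 at day 16 (0.86, or 2.5 without day 4 cell 347), and higher for 6 and lower for 3 of 12 at day 10 (0.97, or 2.27 without cell 347 and −0.05 without day 10 cell 37).

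Day 16 against day 10 had the fewest genes called of the 3 pairs of days. Of 6761 genes, 10.2% were called higher and 5.19% lower at day 16, with a median over all of 0.08. TMM factors gave 567 higher and 449 lower, and DESeq2 size factors 530 and 482, against 691 and 351 in CPM. Ccl2 and Ccl7, neighbouring chemokine genes of chromosome 11 that draw monocytes, were higher at day 16. Ccl2 ran from 0 to 2925 CPM at day 16 with a median of 61.9, and from 0 to 139 CPM at day 10 with a median of 0 (log2 ratio 3.96), and its day 16 sums were 300 CPM in cells 1 to 96 and 716 CPM in cells 97 to 192. Ccl7 had medians of 4.58 CPM at day 16 and 0 CPM at day 10 (2.99). Against day 4, day 10 was lower for Ccl2 (−3.68, or −3.07 without day 4 cell 347) and Ccl7 (−3.44, or −1.09 without the same well). Neither gene was called between day 16 and day 4. Cx3cr1, the fractalkine receptor of patrolling monocytes and many tissue macrophages, reached 20 CPM in 38 of 56 wells at day 16 and 1 of 15 at day 10 (3.67), with medians of 149 CPM in cells 1 to 96 and 38.4 CPM in cells 97 to 192. It also reached 20 CPM in 1 of 7 wells at day 4 and 1 of 5 in the fat pad.

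Also higher at day 16 than at day 10 were Lsp1 (3.41), Pdgfb (3.14, or 2.54 without day 16 cell 81), Gm47586 (3.00), the neutrophil granule gene Ltf (2.87, or 0.25 without day 16 cell 9), Ttc5 (2.87), Smad1 (2.81) and the transferrin gene Trf (2.77). Lower were Gm15056 (−3.89), the T cell chemokine gene Ccl5 (−3.07, or −2.45 without day 10 cell 88), Serpinb9, which blocks granzyme B (−2.98, or −1.71 without day 10 cell 46), Upp1 (−2.64), Timp1 (−2.56), Tm7sf3 (−2.54, or −1.93 without day 10 cell 27), Copg2 (−2.50, or −1.61 without day 10 cell 54), the prostaglandin synthase gene Ptgs2 (−2.47), Nepro (−2.41) and Socs1 (−2.38, or −1.45 without day 10 cell 30). Ccl5 had medians of 3.02 CPM at day 16 and 578 CPM at day 10. Ptgs2 had medians of 7.05 CPM at day 16 and 126 CPM at day 10. Of 18 cytokine genes 4 were higher and 5 lower (median 0.43), and of 13 marrow resident and iron recycling genes 6 were higher and none lower (0.30). Of the 6, some came within 2-fold without 1 day 16 well: Cd5l at 0.09 (cell 46), Slc40a1 at 0.40 (cell 136) and Spic at 0.71 (cell 146). The rest were Siglec1, Hmox1 and Trf. Neutrophil markers moved with this contrast, with 8 of 9 measured higher at day 16 (median 2.22, or 0.47 without day 16 cell 9). Their summed median was 581 CPM at day 16 and 495 CPM at day 10, and their part in the result was not tested.

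**Figure D3:**
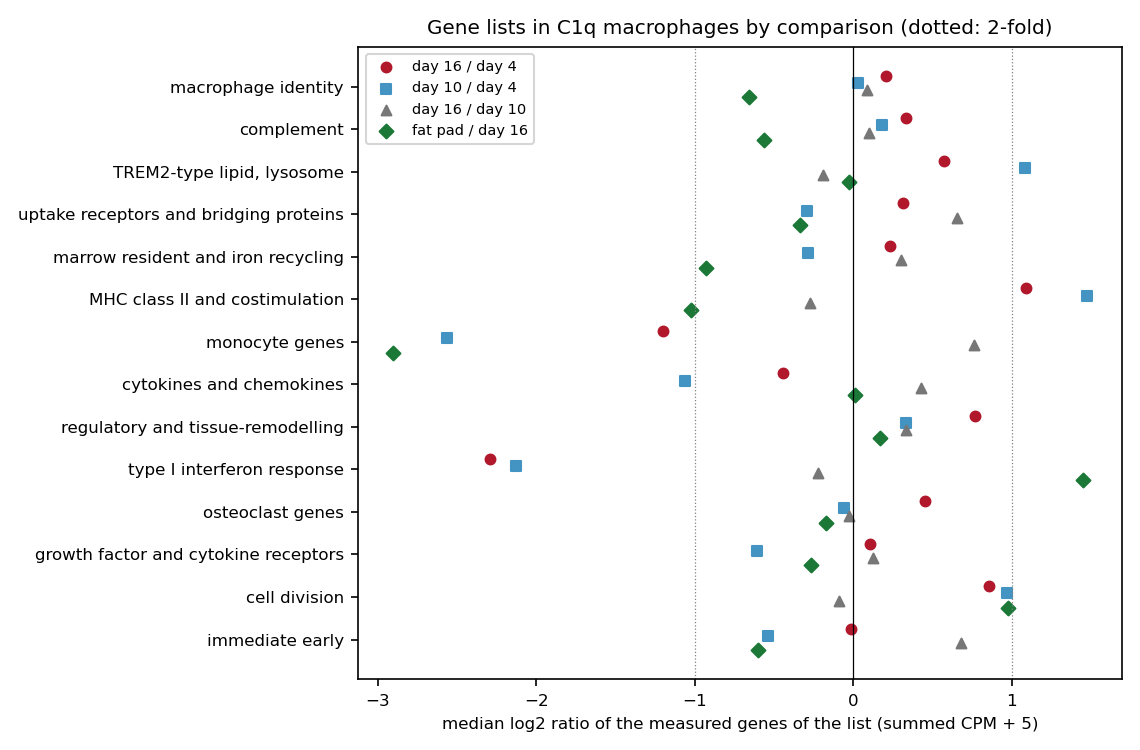
Each symbol is the median log2 ratio of summed CPM plus 5 over the measured genes of a list, in 1 of 4 comparisons of macrophages, and dotted lines mark 2-fold. Interferon genes are at −2.29 and −2.13 for days 16 and 10 against day 4 and at 1.45 for the fat pad against day 16, and monocyte genes are lowest in the fat pad at −2.90. The interferon values were −0.96 and −0.69 without day 4 cell 133, and 0.59 without fat pad cell 72.

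Fat pad macrophages carried more of the protease genes Mmp12 and Mmp13 than day 16 bone macrophages and almost no Vcam1. The 5 wells, cells 7, 59, 72, 95 and 96, were set against 56 day 16 bone macrophages, so site and day differ together. Of 6970 genes, 13.9% were called higher and 27.8% lower, with a median over all of −0.21. TMM factors gave 1260 higher and 1535 lower, and DESeq2 size factors 1333 and 1478, against 972 and 1937 in CPM, and the median moved to 0.03 and 0.08. Mmp12, the macrophage elastase, was 1671, 13114, 4785, 11147 and 8.22 CPM in the fat pad wells in that order. In day 16 bone it ran from 0 to 6660 CPM with a median of 3.46, and 14 of 56 wells reached 20 CPM (log2 ratio 3.72, or 2.76 without cell 59). Mmp13, a collagenase, was 2.40, 3261, 598, 3783 and 98.4 CPM in the fat pad, against a median of 0.675 CPM and a highest value of 1091 CPM in day 16 bone (4.64, or 3.34 without cell 59). Nos2, which makes nitric oxide, was 118, 1247, 2.34, 187 and 71.4 CPM in the fat pad and had a median of 0.376 CPM in day 16 bone (3.91, or 1.7 without cell 59). For each of these 3 genes, several wells of day 16 bone lay within the fat pad range. In cells 1 to 96 the sums were 202 CPM of Mmp12 and 6.97 CPM of Nos2, and in cells 97 to 192 they were 746 CPM of Mmp12 and 41.2 CPM of Nos2.

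Arg1 was 13019, 9350, 27.1, 4404 and 1924 CPM in the fat pad wells, within the day 16 range (log2 ratio 0.88). Hmox1 was 24033, 4583, 395, 3453 and 112 CPM in the fat pad, against 3.25 to 25397 CPM in day 16 bone with a median of 270 (1.79, or −0.11 without cell 7). Its day 16 sums were 769 CPM in cells 1 to 96 and 4019 CPM in cells 97 to 192. Spp1, the secreted osteopontin, was 2320, 14602, 1903, 2374 and 255 CPM in the fat pad, against 111 to 25399 CPM with a median of 245 in day 16 bone (2.23, or 0.60 without cell 59). Wells not called host had a median of 18051 CPM of Spp1 at day 16, and the other host wells had 182 CPM with none under 103, so most day 16 macrophages were near the level found in other wells. The remaining named higher genes were the chemokine gene Cxcl3 (5.00, or −0.10 without cell 7), Cmpk2 (4.87, or 1.96 without cell 72), Tnfrsf9, a costimulatory receptor (4.50, or 2.84 without cell 59), Rps6ka2 (4.48, or 3.67 without cell 59), the antiviral gene Rsad2 (3.89, or 1.46 without cell 72), Cyp2j6 (3.79, or 2.36 without cell 59) and Poc5 (3.69, or 2.99 without cell 72). Of 15 measured regulatory and tissue-remodelling genes, 4 were higher, Cd274, Nos2, Mmp12 and Mmp13, and 3 lower, Mmp19, Timp2 and Igf1 (median 0.17, or −0.59 without cell 7).

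Vcam1 was 0.801, 0.716, 2.68, 3.85 and 1.7 CPM in the fat pad. In day 16 bone it ran from 0.814 to 8261 CPM with a median of 133, and 33 of 56 wells reached 20 CPM (log2 ratio −6.16). At days 4 and 10 it reached 20 CPM in 4 of 7 and 11 of 15 wells. No fat pad well lay above 4 CPM, and low bone wells overlapped them. Also lower in the fat pad were S100a8 (−7.30), Ngp (−6.55), S100a9 (−6.48) and Ltf (−5.19), all neutrophil genes, which were at −5.27, −4.25, −4.48 and −2.57 in that order without day 16 cell 9, Serpina3g (−6.10), C3 (−5.12), the inhibitory lectin gene Clec12a, Pdgfb (−4.17, or −3.57 without day 16 cell 81) and Ccr2 (−4.02). Clec12a had 0 reads in the fat pad and 24201 in day 16 bone, at least 659-fold lower in the fat pad with 3 reads over the group as the floor. Ccr2 had 3 reads in the fat pad. S100a8 was read in every day 16 macrophage, at 81.1 CPM or more, and in the fat pad at no more than 5.95 CPM, and 8 of 9 measured neutrophil markers were lower in the fat pad and 1, Mmp8, higher. The part of neutrophil RNA in these results was not tested.

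Interferon response genes were higher for 10 of 15 in the fat pad with none lower (median 1.45, or 0.59 without cell 72). Several of these calls rest on 1 well. Without cell 72, Ifit3 was at −2.21, Oasl2 at −1.25, Ifi44 at −0.66, Isg15 at 0.38 and Ifit1 at 0.59. Without cell 96, Irf7 was at −0.25. Ifit2, Rsad2, Usp18 and Rtp4 stayed at 1.02 or higher. Rsad2 was 2.00, 1091, 6449, 77.1 and 1.42 CPM in the 5 wells. MHC class II genes were lower for 5 of 10 and higher for 1 (−1.03, or −0.35 against cells 97 to 192 alone). Marrow resident and iron recycling genes were lower for 7 of 14 and higher for 2 (−0.93), monocyte genes were lower for 4 of 7 (−2.90), identity genes for 5 of 18 (−0.66) and complement genes for 4 of 11 (−0.57, or −1.30 without cell 96). Without the C1q genes, which chose the wells of both groups, 4 of 8 complement genes were lower (−1.85). TREM2-type genes were higher for 5 and lower for 3 of 18 (−0.03, or 0.19 with TMM factors), with Trem2 among the lower (−1.43). Trem2 was 4.41, 172, 424, 233 and 116 CPM in the fat pad. Cell division genes were higher for 5 and lower for 1 of 12 (0.98), and this rested on cell 96, without which the median was −3.04.

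Within day 16, Arg1 and antigen presentation varied in opposite directions from well to well. Of 56 wells, 29 had at least 100 CPM of Arg1 and less than 100 CPM of Cxcl9, 15 had the reverse, 6 had both and 6 neither. Median H2-Ab1 was 1016 CPM in the 29 and 9840 CPM in the 15. In cells 1 to 96 the counts were 12, 14, 6 and 3, and in cells 97 to 192 17, 1, 0 and 3. The pooled medians therefore mix the sets. In cells 1 to 96 median H2-Ab1 was 1835 CPM with Arg1 alone and 10180 CPM with Cxcl9 alone. In cells 97 to 192 it was 702 CPM with Arg1 alone and 1599 CPM in the 1 well with Cxcl9 alone. Spearman's rho of Arg1 with H2-Ab1 was −0.52 over 56 wells, −0.43 over the 35 wells of cells 1 to 96 and −0.47 over the 21 of cells 97 to 192. Arg1 with Cxcl9 gave −0.58 over all, and −0.49 and −0.41 in the sets in that order. H2-Ab1 with Cxcl9 gave 0.59 over all, 0.61 in cells 1 to 96 and 0.15 in cells 97 to 192. These wells share 1 group and its unknown number of animals and plates, so the values only describe them.

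**Figure D4:**
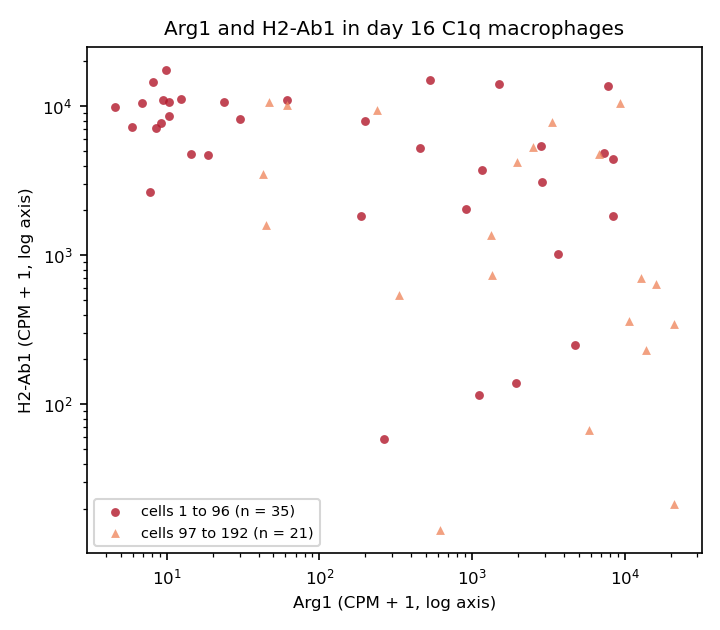
Each point is a day 16 macrophage, with Arg1 on the horizontal and H2-Ab1 on the vertical axis, both as CPM plus 1 on log axes, and the symbol gives the cell number range. Median H2-Ab1 is 9840 CPM in wells with Cxcl9 but not Arg1 at 100 CPM or more and 1016 CPM in the reverse. Within cells 1 to 96 these medians are 10180 and 1835 CPM. Within cells 97 to 192 they are 1599 CPM, from 1 well, and 702 CPM.

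Some pairs of genes varied together from well to well at day 16. H2-Ab1 with its partner chain H2-Aa gave a rho of 0.98 in cells 1 to 96 and 0.95 in cells 97 to 192. The C1q pairs gave 0.51 to 0.74 in cells 1 to 96 and 0.81 to 0.86 in cells 97 to 192, within wells that C1q had chosen. On chromosome 11, Ccl2 with Ccl7 gave 0.66 and 0.67 in the 2 sets. Vcam1, on chromosome 3, and Ccl8, on chromosome 11, gave 0.52 and 0.81. Trem2 with Apoe gave 0.31 and 0.09, and Arg1 with Trem2 0.24 and −0.16. Krt8 with Cxcl9 gave 0.57 over all 56 wells but 0.13 and 0.28 within the sets.

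At day 10 there were 2 wells with Arg1 alone, 5 with Cxcl9 alone, 3 with both and 5 with neither at 100 CPM. The counts were 0, 2, 0 and 5 at day 4, and 3, 0, 1 and 1 in the fat pad. Cxcl9 reached 20 CPM in 1 of 5 fat pad wells, 2 of 7 at day 4, 14 of 15 at day 10 and 26 of 56 at day 16. Ccl8 did so in 3 of 5, 3 of 7, 11 of 15 and 32 of 56. Its medians were 39.1 CPM in the fat pad and 0, 1562 and 39.2 CPM at days 4, 10 and 16.

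The macrophages carried little of the sorting reporter. Median mCherry was 29.6 CPM in the 84 macrophages, 1482 CPM in the other host wells and 513 CPM in the wells not called host. At least 100 CPM was found in 13 of 84 macrophages and 508 of 624 other host wells. By group, the median was 19.6 CPM in macrophages and 10.5 CPM in other host wells of the fat pad. In bone, macrophages had 36.8 CPM and other host wells 2014 CPM at day 4. At day 10 macrophages had 15.0 CPM and other host wells 1545 CPM, and at day 16 macrophages had 29.6 CPM and other host wells 2249 CPM. Median luciGFP reads were 1.25 CPM in macrophages, 0.773 CPM in other host wells and 64.4 CPM in wells not called host. Gene counts per spike-in count, which rise with RNA per well, had a middle range of 84.2 to 221 in macrophages, 82.5 to 227 in monocyte and precursor wells and 290 to 689 in wells not called host. The median Krt8 level was 29.7 CPM in macrophages and 8.36 CPM in other host wells, under the limit the rule set.

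**Figure D5:**
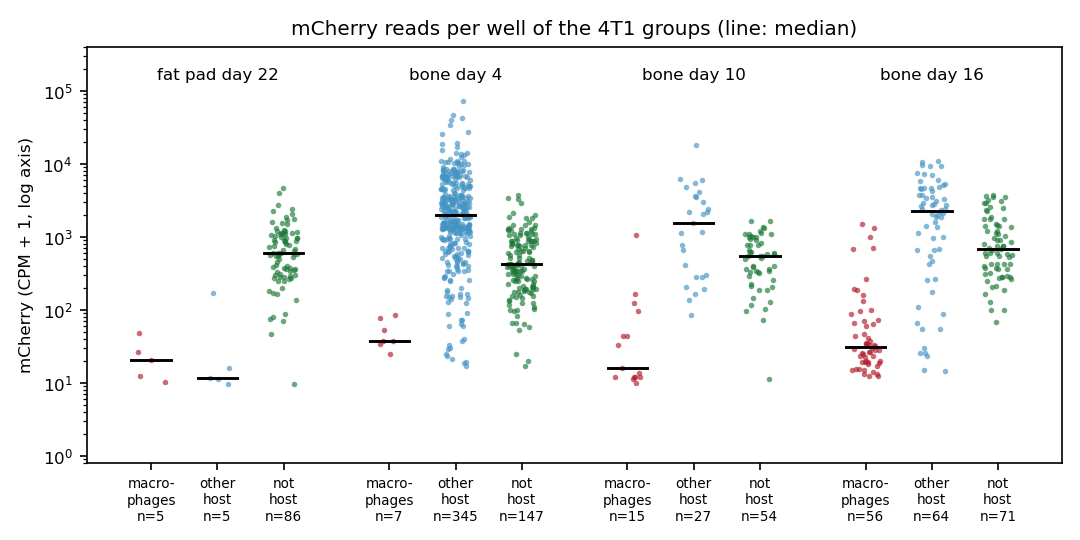
Each point is a well of a 4T1 group, the vertical axis is mCherry as CPM plus 1 on a log axis, and the line is the median of macrophages, other host wells and wells not called host. Macrophages have medians of 15.0 to 36.8 CPM in every group, while other host wells have 1545 to 2249 CPM in bone and 10.5 CPM in the fat pad.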

How the data were processed

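Per the labels, sorted single wells were sequenced full-length with paired 150-base reads. One deposited table holds whole-number read counts per gene symbol and well, and these are reads, with no molecular barcodes. Per the submitters' processing notes, the build was mm10 and the tools, with no role or order recorded, were STAR 2.6.0c, featureCounts 1.6.2, Seurat 3.1.2 under R 3.6.2, Trim Galore 0.6.6, FastQC 0.11.7 and SAMtools 1.7. The labels do not say if counting used strand, so overlapping genes may share reads. ERCC and reporter entries stayed out of totals, and 4 repeated date-like symbols were left out.

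CPM are a well's counts divided by its total gene counts, times 1000000. Of 1248 wells, 1122 outside culture passed depth. A well was called host with under 500 CPM of Krt8 and Krt18 and at least 300 CPM of 10 pan-haematopoietic genes or 5000 CPM of globins. Host wells that were not macrophages were, in order of precedence, B (Cd79a of 100 CPM or more), neutrophil (S100a8 and S100a9 of 10000 CPM), erythroid (globins of 5000 CPM), or monocyte and precursor (Mpo, Elane, Prtn3 and Ctsg of 500 CPM, or Csf1r and Ccr2 of 100 CPM), else other. Raw counts were summed over the wells of a group and compared as log2 of CPM plus 5. Named genes are the 10 furthest higher and lower with at least 20 CPM in at least 30% of wells of the higher group and 2-fold apart with wells weighted equally, without the genes of the rule, and members of the lists and genes given to show spread over wells were added. A few genes that the rule names are not reported here. The members and lists were chosen with earlier results of these data known. No doublet caller was run. Nothing was tested across wells, since no animal is named.

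Alternatives were C1q thresholds of 300 and 1200 CPM, at most 25% mitochondrial counts, wells of 500000 counts or more, macrophages without RNA of other cells, TMM factors from edgeR 4.0.16, DESeq2 1.42.0 size factors (both in R 4.3.3), no filter on low values, an added 1 CPM, equal weights, and each day 4 or fat pad well left out. Day 16 alone, its 2 number ranges and day 4 without dendritic-marker wells were chosen after seeing the data. Steps ran in Python 3.11.15 with pandas 2.3.3, numpy 2.4.6, scipy 1.17.1 and matplotlib 3.10.9 and were tested on simulated data. Positions are from GENCODE M21 on GRCm38.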

Additional observations from a re-analysis of the deposited data

Results flagged for a closer look

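The gap in mCherry between macrophages and other host wells was wide in bone and small in the fat pad. Macrophage minus other host median was 9.03 CPM in the fat pad, against −1977 CPM at day 4, −1530 CPM at day 10 and −2220 CPM at day 16 in bone. The fat pad medians, 19.6 CPM in macrophages and 10.5 CPM in other host wells, were near the lowest mCherry values of single wells. Those were 8.78 CPM in macrophages and 8.08 CPM in other host wells over all groups. A gap at that level gives no reliable sign. The fat pad values rest on 5 macrophages and 5 other host wells, all of the monocyte and precursor class, and the difference between sites was not tested.

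C1q of 600 CPM or more also appeared in 8 wells that Cd79a kept out: 4 of 4T1.2 day 4, 3 of 4T1 day 4 and 1 of day 16. Their C1q sums ran from 734 to 9308 CPM, against at most 0.455 CPM in cultured cells, and Cd79a from 170 to 6309 CPM. The day 16 well had 52113 CPM of Apoe and 541 CPM of Trem2. Whether these wells held more than 1 cell was not tested.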

How the results depend on the processing

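Of 1780 values of named genes under alternatives, 1776 kept their direction and stayed past 2-fold, 2 came within 2-fold and 2 reversed: Cd24a, day 16 over day 4, at 0.58 without day 4 cell 130 (range over left-out wells −4.22 to 0.58), and Cxcl3, fat pad over day 16, at −0.10 without fat pad cell 7 (−0.10 to 5.49). Of the 1780, equal weights, no filter and the 1200 CPM threshold gave 120 each, and none of these could change. Named genes had to be 2-fold apart with equal weights, and the filter does not alter a ratio. The 1200 CPM threshold keeps the same 84 wells. Of 1246 list medians, 1160 kept side and direction, 48 passed 2-fold, 33 came within it, 3 moved otherwise and 2 reversed. The 1160 include 84 at the 1200 CPM threshold, which could not change either. The reversed ones were monocyte genes, day 16 over day 4, at 0.36 without day 4 cell 130 (−1.50 to 0.36), and osteoclast genes, macrophages over other host wells, at −0.12 with no filter on low values. A C1q threshold of 300 CPM gave 2 members in 4T1.2 day 4 in place of 1. Against monocyte and precursor wells, 902 genes were lower with TMM factors and 1047 higher within day 16. At day 16 against day 4, DESeq2 size factors gave 1243 higher and 2289 lower. With no filter, 3506 genes were higher at day 16 and 3156 at day 10 against day 4, 1233 higher and 575 lower at day 16 against day 10, and 3340 lower in the fat pad, where more genes were measured. Cells 97 to 192 alone gave 741 lower against day 10. Leaving out 1 well gave 1964 to 2360 higher and 1343 to 1491 lower at day 16 and 1812 to 2157 higher and 1521 to 1760 lower at day 10 against day 4. In the fat pad it gave 987 to 1178 higher and 1878 to 2766 lower. The cause of the other changes was not tested. No paired analysis was possible because cell numbers only name wells and tie no well of one group to a well of another.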
